A study of Mus musculus with 16 samples.

Results

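The p53 target and damage response genes described here are Cdkn1a, Ccng1, Mdm2, Zmat3, Bbc3, Bax, Phlda3, Gdf15, Trp53inp1 and Sesn2. They are 10 genes chosen by symbol as a check on cell damage under house dust mite extract (HDM), a mixture of mite proteins and other mite products that is used as an airway allergen. All 10 were matched among the 49315 gene identifiers of the count table, and all 10 were among the 15993 genes kept after a filter on low counts. RNA was sequenced from primary murine tracheal epithelial cells (MTECs), which are grown from mouse tracheas on inserts and differentiate with air above and medium below. Cultures came from female (F) and male (M) mice, labelled WT or KO for LMAN1, a cargo receptor that moves glycoproteins from the endoplasmic reticulum to the Golgi, and were left naive or received 20 µg/ml HDM overnight. These 3 factors gave 8 groups of 2 biological replicates, and so 16 libraries. WT and KO animals were littermates on a C57BL/6J background from heterozygous breeding, and tracheas of several mice were pooled for the cultures. A library therefore stands for a culture from a pool, and the p-values below measure the spread between such cultures. The labels do not say whether the 2 replicates of a group came from separate pools. The age of the mice used for the cultures is not given in the sources used here.

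The transcription factor p53 is stabilised when DNA is damaged, when ribosome production is disturbed or when a cell is otherwise stressed, and it binds DNA as a tetramer and raises transcription of its targets. Some targets stop the cell cycle, some promote death through mitochondria, some act on metabolism or oxidative stress, and Mdm2 feeds back by marking p53 for degradation. Transcripts of these genes are often read as a measure of p53 activity, although several also answer to other stress pathways. In airway epithelium, basal cells, the progenitors of the tissue, depend on the related factor p63, and p73 takes part in the formation of multiciliated cells.

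A p53 response element consists of paired copies of a 10-base consensus, called a decamer here, and the sequences below show where such elements lie beside the members with a match. RefSeq promoter windows of GRCm38.p6, which run from 250 bases before to 50 bases after an annotated start, were searched on both strands. A decamer with no mismatch to the p53 consensus lay in 8.36% of the 32851 windows. A full 20-base element with at most 2 mismatches and intact core bases lay in 107 of them, or 0.33%. Windows were given for 8 of the 10 members. A decamer was found in 4 of these 8 (Cdkn1a, Mdm2, Bax and Ccng1), and a full element in 2 (Cdkn1a and Ccng1). Among 30 other p53 targets, 21 had a window, 8 had a decamer and 1, Rps27l, had a full element. These counts are by gene, and some genes have several windows, whereas the shares above are by window, so the 2 are not alike. In the lines below the matched bases are in capitals, each sequence runs 5′ to 3′ on the strand of its gene, and each is from RefSeq on GRCm38.p6.
Cdkn1a, full element, chr17:29090908-29090967, plus strand: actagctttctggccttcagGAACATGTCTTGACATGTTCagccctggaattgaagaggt
Ccng1, full element, chr11:40755442-40755501, minus strand: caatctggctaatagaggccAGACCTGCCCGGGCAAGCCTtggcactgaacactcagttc
Rps27l, full element, chr9:66946276-66946335, plus strand: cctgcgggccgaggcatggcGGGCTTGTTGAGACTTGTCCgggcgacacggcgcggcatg
Mdm2, decamer, chr10:117710915-117710964, minus strand: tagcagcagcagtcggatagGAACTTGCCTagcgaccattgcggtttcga
Bax, decamer, chr7:45467070-45467119, minus strand: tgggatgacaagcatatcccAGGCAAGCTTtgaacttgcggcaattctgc
The Cdkn1a element ends 32 bases before the upstream of its 2 annotated starts and 2822 bases before the other, and it carries 1 mismatch. The Ccng1 element begins 195 bases before the start and also carries 1 mismatch. No match says only that these letters are not in the window, and binding of p53 was not measured here.

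Totals over genes ranged from 21860698 to 43442188 counts per library, and the members were read deeply, from 493 counts for Bbc3 to 23872 counts for Cdkn1a in a library. Levels are given as CPM, the count of a gene relative to the TMM-scaled total of its library. Lman1, the targeted gene, had 101 to 144 CPM in the 8 WT libraries, 12.8 CPM in both F KO naive libraries, 14.2 and 63.4 CPM in the M KO naive libraries and 65.0 to 78.1 CPM in the 4 KO HDM libraries. In 5 of the 8 libraries labelled KO the gene thus stood well above the level of the other 3, which goes against a simple reading of the label, and these libraries are called KO-labelled below. The basal markers Krt5 and Krt14 were at 628 to 5870 and 896 to 3600 CPM over the libraries, and the ciliated regulator Foxj1 at 44.8 to 97.5 CPM. Of the secretory markers, Cyp2f2 was at 3750 CPM or more, whereas Scgb1a1, which defines club cells, did not exceed 3.75 CPM in any library.

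Under HDM, 8 of the 10 members rose in F WT MTECs. In male MTECs no member was called, and neither was any other tested gene. In the F WT HDM libraries Gdf15 was 5.86-fold above the naive level, and Mdm2, Cdkn1a, Bbc3, Bax, Ccng1, Zmat3 and Phlda3 were 2.40 to 1.38-fold above it. In F KO-labelled MTECs 9 of the 10 had a positive log2 fold change and 1 was called, where 10.4% of all tested genes were called. The naive and HDM libraries of these MTECs also differed in Lman1, as given above. The test is edgeR's quasi-likelihood test over the 8 group means with Benjamini-Hochberg adjustment over all 15993 genes, and a gene is called at an adjusted p under 0.05. The response to HDM in F WT MTECs was broad, with 43.1% of all tested genes called, 20.6% higher and 22.4% lower, against which the 8 of 10 is to be read. The median log2 fold change was 1.00 over the 10 members and -0.02 over all tested genes.

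**Figure D1:**
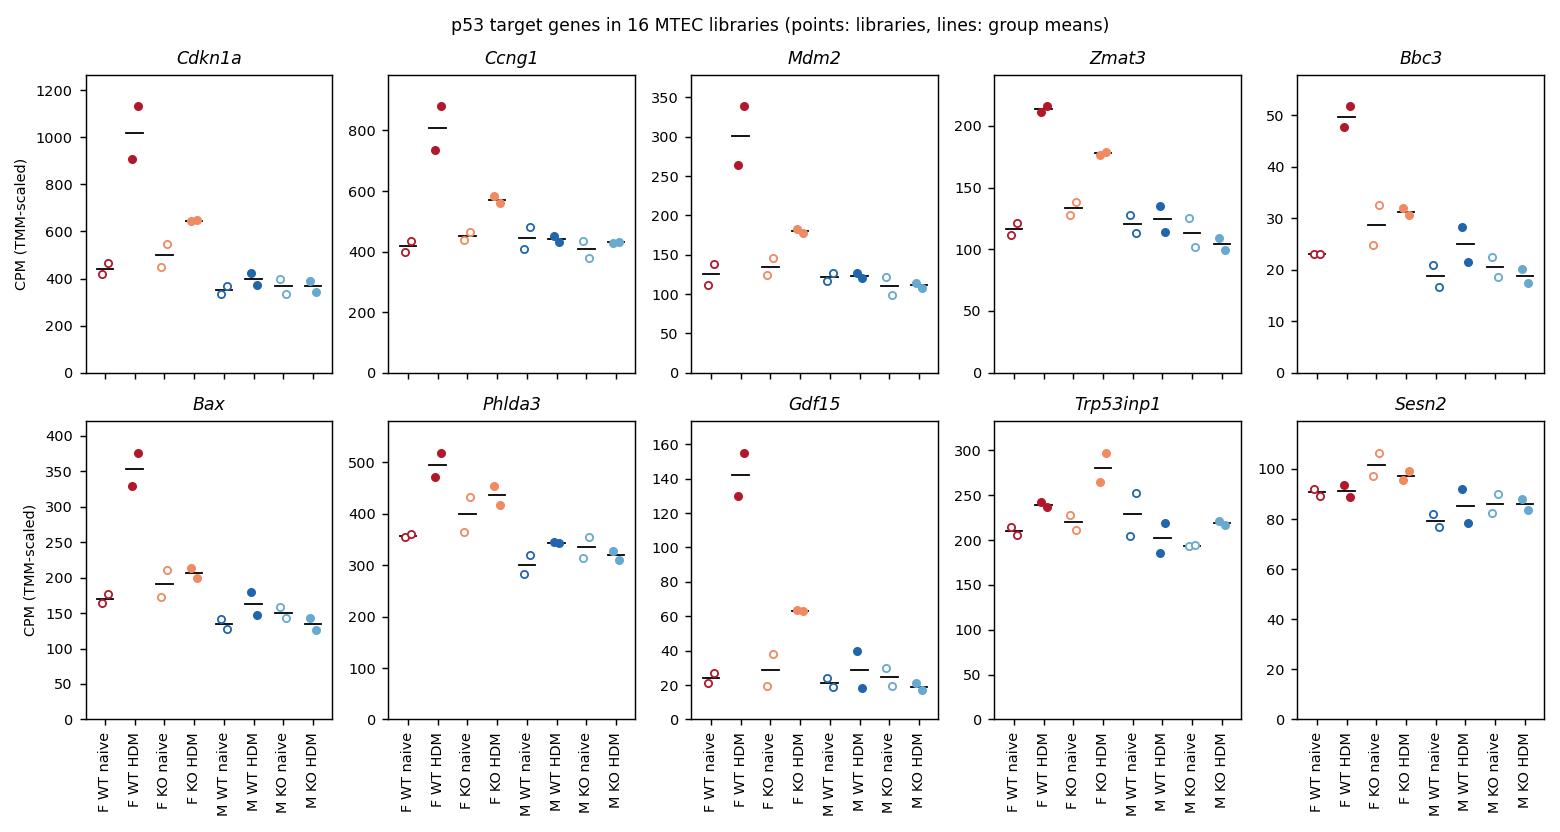
TMM-scaled CPM (vertical axes, from 0) of the 10 genes in each of the 16 libraries, by group on the horizontal axis; points are libraries, open for naive and filled for HDM, and lines are group means. Both F WT HDM libraries lie above the other 14 for 8 genes, and Trp53inp1 and Sesn2 are the exceptions.

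Cdkn1a encodes p21, the cyclin-dependent kinase inhibitor through which p53 stops cells before DNA replication. It stood at 419 and 466 CPM in the F WT naive libraries and at 907 and 1131 CPM in the F WT HDM libraries. The F KO-labelled libraries were at 449 and 548 CPM when naive and 643 and 647 CPM under HDM, and the 8 male libraries lay between 335 and 424 CPM. The F WT HDM libraries did not overlap with any other group, and F KO HDM came next, also without overlap. The rise in F WT was 1.203 on the log2 scale (SE 0.14, adjusted p = 4.92e-05, edgeR). Exons of Cdkn1a (ENSMUSG00000023067, chromosome 17) share 273 of 3553 bases with a gene on the opposite strand, AC167363.2, and the strand setting of the counts is not given in the sources used here.

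Ccng1 encodes cyclin G1, which works with a phosphatase on Mdm2 and the cell cycle. Its levels were 400 and 435 CPM in F WT naive, 737 and 879 CPM in F WT HDM, 438 and 464 CPM in F KO naive and 582 and 559 CPM in F KO HDM libraries. The male libraries spread from 380 to 481 CPM with no order by treatment. The log2 fold change in F WT was 0.95 (SE 0.11, adjusted p = 4.63e-05, edgeR).

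Mdm2, the ubiquitin ligase that removes p53, had 112 and 138 CPM in F WT naive and 264 and 338 CPM in F WT HDM libraries. F KO-labelled libraries held 124 and 146 CPM when naive and 182 and 178 CPM under HDM, and male libraries 98.6 to 127 CPM. The log2 fold change in F WT, 1.26 (SE 0.14, adjusted p = 4.10e-05, edgeR), was the second among the members after that of Gdf15. Zmat3, an RNA-binding zinc finger protein that regulates splicing, went from 112 and 121 CPM to 211 and 216 CPM in F WT and from 128 and 138 CPM to 176 and 179 CPM in F KO-labelled MTECs. It was the 1 member called in both female genotypes, with log2 fold changes of 0.87 (SE 0.11, adjusted p = 9.27e-05) and 0.42 (SE 0.11, adjusted p = 0.0327) in edgeR's test. Male libraries had 99.2 to 135 CPM of Zmat3, so that F KO HDM libraries lay above all male libraries.

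Bbc3 and Bax act in the mitochondrial death pathway, Bbc3 (also called PUMA) as a BH3-only protein that frees the pore-forming Bax. Bbc3 was at 23.0 CPM in both F WT naive libraries and at 47.8 and 51.7 CPM in F WT HDM libraries, a log2 fold change of 1.11 (SE 0.17, adjusted p = 0.000303, edgeR). F KO-labelled libraries had 24.8 and 32.5 CPM when naive and 32.0 and 30.6 CPM under HDM, and these ranges overlapped. Bax had 164 and 177 CPM in F WT naive, 330 and 376 CPM in F WT HDM, 172 and 211 CPM in F KO naive and 213 and 199 CPM in F KO HDM libraries. Its log2 fold change was 1.05 in F WT (SE 0.13, adjusted p = 7.24e-05, edgeR) and 0.11 in F KO (SE 0.13, adjusted p = 0.646). Over the 10 members, both F KO HDM libraries lay above both naive ones for 6, Cdkn1a, Ccng1, Mdm2, Zmat3, Gdf15 and Trp53inp1, and for 29.4% of all tested genes. Bax exons share 192 of 1576 bases with Gm45808 on the same strand. Phlda3, a small lipid-binding protein that restrains AKT, rose from 355 and 360 CPM to 472 and 518 CPM in F WT, a log2 fold change of 0.47 (SE 0.10, adjusted p = 0.00314, edgeR), the smallest called among the members.

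Gdf15 is a secreted factor of the TGF-beta superfamily that is induced by p53 and by the integrated stress response. The F WT naive libraries had 21.2 and 27.2 CPM and the F WT HDM libraries 130 and 155 CPM. F KO HDM libraries held 63.6 and 62.9 CPM, above 19.5 and 37.8 CPM in F KO naive libraries. One M WT HDM library had 39.6 CPM and the other 18.4 CPM, and the remaining male libraries lay between 17.0 and 29.7 CPM. The log2 fold change was 2.55 in F WT (SE 0.37, adjusted p = 0.000237) and 1.14 in F KO (SE 0.36, adjusted p = 0.0652) by edgeR.

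The other two members did not pass the test in F WT. Trp53inp1, a nuclear and autophagy-linked protein that promotes p53 activity, had 215 and 205 CPM in F WT naive and 242 and 236 CPM in F WT HDM libraries, and its highest values, 265 and 297 CPM, were in F KO HDM libraries. Its log2 fold change was 0.19 in F WT (SE 0.11, adjusted p = 0.171) and 0.35 in F KO (SE 0.11, adjusted p = 0.0557) by edgeR. Sesn2, a stress-induced leucine sensor that restrains mTORC1, was between 76.7 and 106 CPM over all 16 libraries. Its F WT log2 fold change was 0.01 (SE 0.08, adjusted p = 0.96), and its F WT naive and HDM libraries overlapped. Per kilobase of exon, the mean level over the groups was highest for Phlda3, at 239 CPM per kb, followed by Cdkn1a at 144 and Ccng1 at 141, and lowest for Zmat3 at 12.1 CPM per kb.

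**Figure D2:**
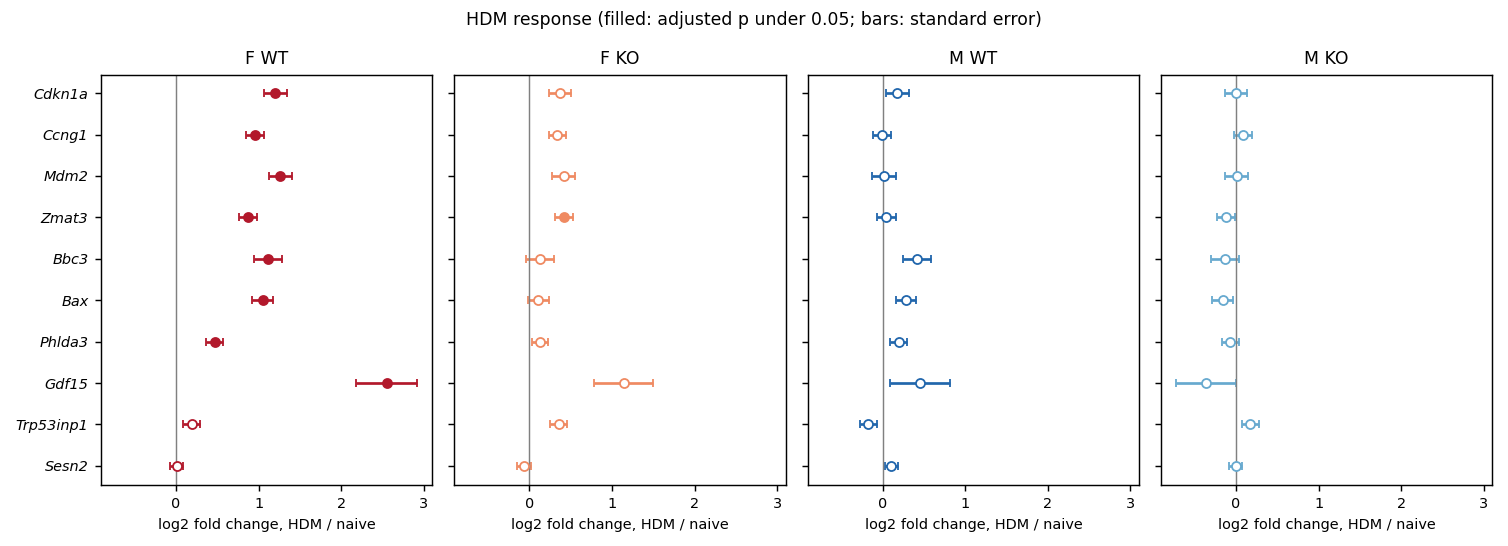
Log2 fold change of HDM over naive (horizontal axis) for the 10 genes in F WT, F KO-labelled, M WT and M KO-labelled MTECs; points are edgeR estimates, bars are standard errors, and filled points have an adjusted p under 0.05. F WT has 8 filled points and F KO 1, and the male panels have none.

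In 9 of the 10 members, all but Sesn2, both F WT HDM libraries lay above both naive ones; this held for 35.5% of all tested genes. Both F WT HDM libraries lay above all other 14 libraries for 8 members and for 20.0% of tested genes. Each of the 8 calls in F WT was also made when any 1 of the 4 F WT libraries was left out. In F KO-labelled MTECs the median over the members was 0.35 against -0.005 over all genes, 9 of 10 had a positive log2 fold change, and 1 was called where 10.4% of tested genes were called, 4.63% higher and 5.77% lower. Of the other 9, Trp53inp1, Gdf15, Ccng1 and Mdm2 had adjusted p from 0.0557 to 0.0865 in edgeR's test, and Cdkn1a had 0.113. This count depended on the fit, since DESeq2 called 5 members, a fit to the compared libraries alone 5 and a fit without the filter on low counts 6. Zmat3 was no longer called when any 1 of the 4 F KO-labelled libraries was left out.

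In male MTECs no member was called in either genotype. No gene at all was called there by edgeR, and 665 genes (4.16%) in M WT and 857 (5.36%) in M KO-labelled MTECs had an unadjusted p under 0.05. DESeq2 called 2 and 1 genes, none of them a member. Log2 fold changes of the members ran from -0.17 to 0.45 in M WT, with a median of 0.14, and from -0.36 to 0.18 in M KO, with a median of -0.04. Bbc3 and Bax had an unadjusted p under 0.05 in M WT (adjusted p = 0.936 for both, edgeR). The SE of Cdkn1a was 0.14 in both male comparisons, as in F WT. The fit shares its estimate of the spread over all groups, so this SE does not measure the spread of the male libraries alone.

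**Figure D3:**
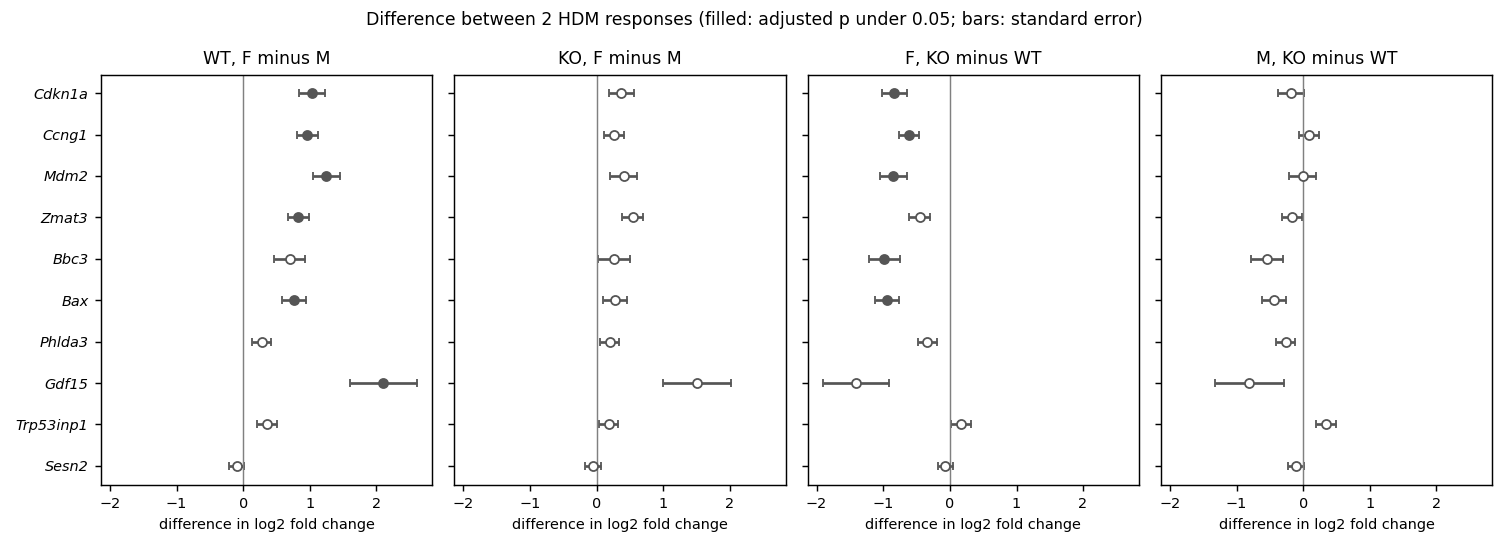
Difference between 2 HDM responses (horizontal axis, in log2 fold change) for the 10 genes: F minus M in WT, F minus M in KO-labelled, KO minus WT in F and KO minus WT in M MTECs. Points are edgeR estimates with standard errors, filled at an adjusted p under 0.05; 6 points are filled for sex in WT and 5 for genotype in F.

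The difference between the responses was tested directly. In WT MTECs, the HDM response was larger in females than in males for 6 members, where 24.2% of all tested genes differed and 11.3% were higher in females. These were Gdf15 (difference 2.11 on the log2 scale, SE 0.51), Mdm2 (1.25, SE 0.20), Cdkn1a (1.03, SE 0.20), Ccng1 (0.96, SE 0.15), Zmat3 (0.83, SE 0.16) and Bax (0.77, SE 0.18), with adjusted p from 0.00122 to 0.0118. Bbc3 had a difference of 0.70 and an adjusted p of 0.0503. The call on Gdf15 was lost without F WT naive replicate 1 (adjusted p = 0.0535, edgeR). Between KO-labelled females and males no member was called (3.56% of tested genes were), and the largest difference was that of Gdf15, 1.504 (SE 0.51, adjusted p = 0.134); 2 members and 18.6% of tested genes had an unadjusted p under 0.05, and DESeq2 called 2 members.

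In females, the response was smaller in KO-labelled than in WT MTECs for 5 members, where 11.2% of tested genes differed and 5.08% were lower. These were Bbc3 (difference -0.98, SE 0.23), Bax (-0.94, SE 0.18), Mdm2 (-0.85, SE 0.20), Cdkn1a (-0.83, SE 0.19) and Ccng1 (-0.61, SE 0.15), with adjusted p from 0.00937 to 0.0288. This rested on single libraries. Without F WT naive replicate 1 the count was 0, and it was 1 without F WT HDM replicate 2, F KO naive replicate 2 or either F KO HDM library, and 3 without F WT naive replicate 2. Calls over all genes moved too, from 1798 to between 496 and 2383 as each library was left out. Gdf15 had a larger difference, -1.41, with a larger SE of 0.50 and an adjusted p of 0.0923. In males no member and no gene was called for this difference, and 1388 genes (8.68%), with 3 members among them, had an unadjusted p under 0.05. The sex difference in WT and the genotype difference in F use the same F WT libraries and are not independent of each other. Lman1 was at 12.8 CPM in both F KO naive libraries and at 66.6 and 78.1 CPM in the F KO HDM ones. Treatment and Lman1 level thus changed together in F KO-labelled MTECs and cannot be told apart there.

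No member was called between naive KO-labelled and WT MTECs of either sex. All 10 log2 fold changes were between 0.06 and 0.31 in F naive MTECs, with adjusted p of 1.00, and between -0.24 and 0.20 in M naive MTECs. No gene of any kind was called by edgeR in these 2 comparisons. Its unadjusted p was under 0.05 for 203 genes (1.27%) and 867 genes (5.42%), while DESeq2 called 1 gene in each. Even Lman1 went uncalled by edgeR in F naive MTECs, at 12.8 CPM in both KO-labelled libraries against 123 CPM in both WT ones. The lack of a call is therefore not evidence that a member did not differ. Under HDM, 6 members were lower in F KO-labelled than in F WT MTECs, where 29.2% of tested genes were called, 14.3% lower and 14.9% higher. Gdf15 was at 0.444 of the F WT level (adjusted p = 0.0279, edgeR), Bax at 0.585, Mdm2 at 0.598, Bbc3 at 0.629, Cdkn1a at 0.633 and Ccng1 at 0.706. Without F WT HDM replicate 2 the count was 2, and without F KO HDM replicate 2 it was 3, while calls over all genes went from 4669 to between 1701 and 4568 as each library was left out. In M HDM MTECs no member or gene was called, with 3 members and 2897 genes (18.1%) at an unadjusted p under 0.05; DESeq2 called 538 genes, none of them a member.

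Between the sexes, no member was called in naive MTECs of either genotype, where 16 genes (0.100%) in WT and 30 genes (0.188%) in KO-labelled MTECs were called. DESeq2 called 209 and 218 genes there, again with no member. The members lay mostly on the female side, with 7 of 10 log2 fold changes above 0 in WT and 10 of 10 in KO-labelled MTECs, of 0.14 to 0.48, and with unadjusted p under 0.05 for 4 and 5 members (12.3% and 9.91% of tested genes). In naive KO-labelled MTECs both female libraries lay above both male ones for 9 members, against 17.3% of tested genes. In naive WT MTECs this held for 5 members, against 22.3% of tested genes. Under HDM, 8 members were higher in F WT than in M WT (41.6% of tested genes called, 20.3% higher), and 9 were higher in F KO-labelled than in M KO-labelled MTECs (25.3% called, 12.4% higher). The 9 included Trp53inp1 (1.28-fold, adjusted p = 0.0279) and left out Sesn2 (1.13-fold, adjusted p = 0.131), by edgeR. Without M KO HDM replicate 2 the count in KO-labelled MTECs was 3, and calls over all genes went from 4050 to between 1734 and 2304 as each library was left out.

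The 8 members called in F WT had similar patterns over the libraries. Over all 16 libraries, Pearson's r of log2 CPM was between 0.828 and 0.987 for the 28 pairs among the 8 members called in F WT, and between 0.593 and 0.974 without the F WT HDM libraries. Sesn2 correlated with the other members at 0.209 to 0.624 and Trp53inp1 at 0.209 to 0.563. These values describe 16 libraries that share scaling and group structure. The 8 members were picked by their rise in the F WT HDM libraries, which by itself raises r among them over all 16. The gene outside the 10 whose pattern was most like that of Cdkn1a and also most like that of Mdm2 was Tnfrsf10b, a death receptor that is itself a p53 target, with r of 0.989 and 0.991. Next came Tmem120a and Glrx3 for Cdkn1a and Ctps and Tpm1 for Mdm2, with r from 0.985 to 0.989.

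Trp53, which encodes p53, rose in F WT MTECs from 131 and 152 CPM to 212 and 202 CPM, a log2 fold change of 0.55 (SE 0.11, adjusted p = 0.00236, edgeR). In F KO-labelled MTECs it had 148 and 161 CPM when naive and 192 and 186 CPM under HDM (log2 fold change 0.30, adjusted p = 0.123). Mdm4, the partner of Mdm2 that blocks p53, was at 33.8 to 58.8 CPM over the libraries and was not called in either. The other family members went the opposite way from Trp53 in F WT. Trp63 fell from 219 and 202 CPM to 64.2 and 36.7 CPM (adjusted p = 1.66e-05), and Trp73 from 5.70 and 5.17 CPM to 0.37 and 0.33 CPM (adjusted p = 8.88e-06). In F KO HDM MTECs Trp63 was at 217 and 190 CPM (log2 fold change -0.13, adjusted p = 0.737), and Trp73 at 3.75 and 3.40 CPM.

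**Figure D4:**
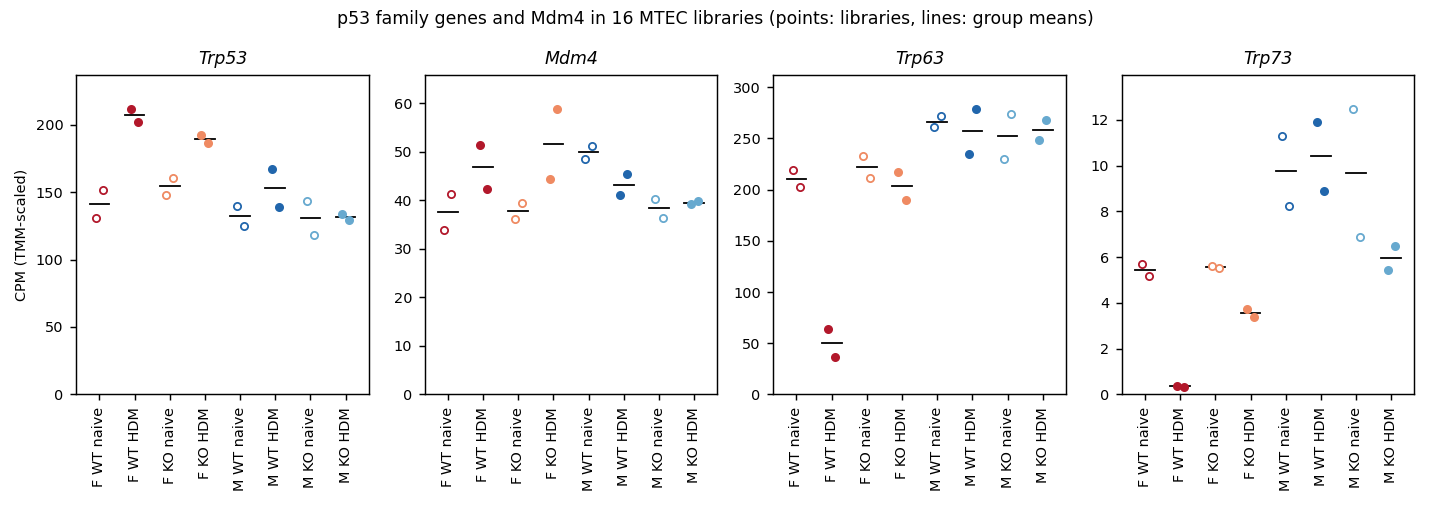
TMM-scaled CPM (vertical axes, from 0) of Trp53, Mdm4, Trp63 and Trp73 in each library by group; points are libraries, open for naive and filled for HDM, and lines are group means. Trp53 is highest in the F WT HDM libraries, and Trp63 and Trp73 are lowest there.

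A further 30 p53 targets were listed. In F WT MTECs 16 rose and 4 fell under HDM, and 10 were not called (median log2 fold change 0.37), where 20.6% of all tested genes rose and 22.4% fell. Eda2r, a death-domain receptor, rose from 36.1 CPM in both naive libraries to 85.9 and 104 CPM, and Tnfrsf10b from 48.2 and 53.6 CPM to 105 and 120 CPM. Thbs1, a matrix protein, went from 123 and 293 CPM to 1062 and 1124 CPM, and Polk, a translesion polymerase, rose 1.58-fold. Rps27l, which has a full element in its promoter window, had a log2 fold change of 0.65 (adjusted p = 0.000393, edgeR). The 4 that fell were Sesn1, Ddb2, Triap1 and Ppm1d, whose products act in leucine sensing, excision repair, survival and the dephosphorylation of p53; these 4 and Rps27l were picked for mention after their values were seen. The 4 called in F KO-labelled MTECs were Eda2r (1.61-fold), Tnfrsf10b, Thbs1 and Polk, all higher. They were 13.3% of the 30, where 10.4% of all tested genes were called, 4.63% higher and 5.77% lower. In males none was called, and neither was any other tested gene. As each F KO-labelled library was left out, Eda2r stayed called (adjusted p = 0.0121 to 0.0408, edgeR), Tnfrsf10b (0.0653 to 0.295) and Thbs1 (0.0991 to 0.247) were lost each time, and Polk (0.0349 to 0.215) was lost without any but F KO HDM replicate 1.

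Among regulators, death genes and other stress genes, calls in F WT MTECs went in both directions, as they did over all tested genes (20.6% higher and 22.4% lower). Of 18 genes of the p53 family and its regulators, 3 rose and 7 fell, or 55.6% called against 43.1% of all genes. Beside Trp63 and Trp73 those that fell included the acetyltransferase Kat5 (0.664-fold) and Ppp1r13b, which directs p53 to death genes (0.564-fold). Ppp1r13l, its inhibitory relative, was 1.28-fold higher in both F WT (adjusted p = 0.00594) and F KO-labelled MTECs (adjusted p = 0.0226), and single libraries decided both calls, with adjusted p up to 0.0598 and 0.209 as each was left out (edgeR). Of 23 genes of the BCL2 family and caspases, 6 rose and 8 fell, or 60.9% called. Bid, a BH3-only protein, was 1.85-fold higher and the protective Bcl2l1 1.45-fold higher, while Casp9 was at 0.609 and the BH3-only gene Bmf at 0.428 of the naive level. Bmf and Bad also fell in F KO-labelled MTECs, Bmf to 0.483 of the naive level. The call on Bad was lost without single libraries in both (adjusted p up to 0.0685 in F WT and 0.117 in F KO, edgeR).

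A list of 19 stress genes held Atf4, Ddit3, which encodes CHOP, and genes downstream of them. They belong to the integrated stress response, which can also induce Gdf15, Sesn2 and Bbc3. Of the 19, 1 rose and 6 fell in F WT, or 36.8% called, below the 43.1% of all tested genes. Only transcripts were counted, and ATF4 protein was not measured. Atf4 itself went from 385 and 392 CPM to 266 and 291 CPM (adjusted p = 0.000232), and Nupr1 from 1284 and 1104 CPM to 539 and 626 CPM (adjusted p = 4.54e-05). Both fell in F KO-labelled MTECs too, to 0.803 and 0.666 of the naive level. There the Atf4 call was lost without any 1 of the 4 libraries (adjusted p = 0.0777 to 0.0866), and that of Nupr1 without all but F KO naive replicate 2 (0.0146 to 0.113), by edgeR. Of 16 cyclins, kinases and other inhibitors of the cell cycle, 6 rose and 3 fell in F WT, or 56.2% called. Cdkn2b was 2.51-fold and Cdk6 1.67-fold higher, while Cdkn1b (p27) was at 0.44 and Cdkn1c (p57) at 0.239 of the naive level. None of 16 mitotic genes known to be repressed downstream of p21 was called in F WT or F KO-labelled MTECs, with a median log2 fold change of -0.41 and 0.28. Mki67 had the lowest p of these in F WT (log2 fold change -0.88, adjusted p = 0.0907, edgeR), with 92.7 and 104 CPM in naive and 72.7 and 33.9 CPM in HDM libraries. As each F WT library was left out its log2 fold change ran from -1.54 (adjusted p = 0.02) to -0.44 (adjusted p = 0.471), and Mki67 and Cdc20 were called lower without F WT HDM replicate 1. Without the filter on low counts Mki67, Cdc20 and Ccnb2 were called lower in F WT, and Mki67 and Mybl2 higher in F KO-labelled MTECs, and both of the F KO calls were also made in a fit to the compared libraries alone. No gene of any of these lists was called in the HDM response of males, where no tested gene was called by edgeR.

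**Figure D5:**
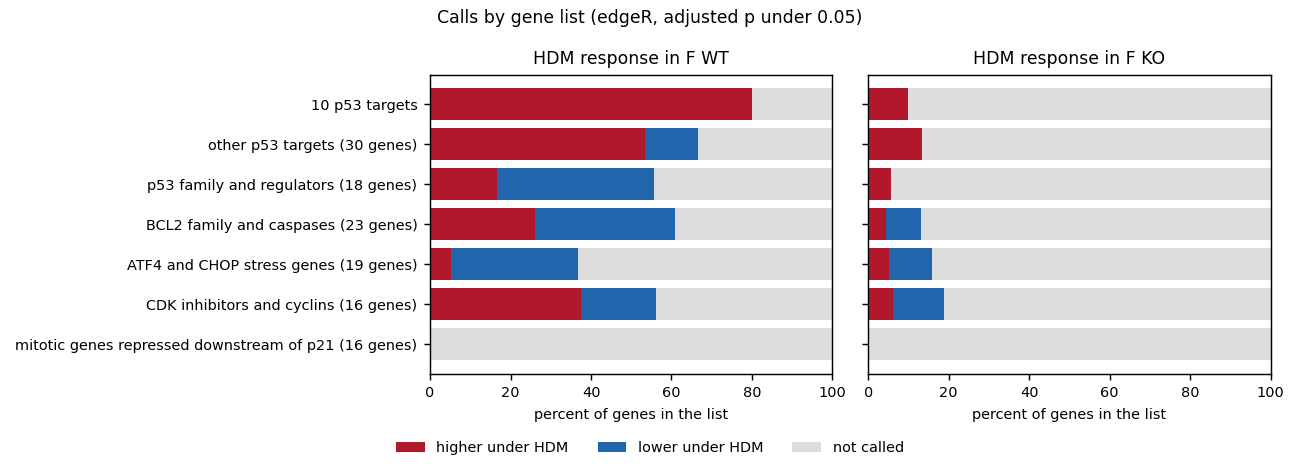
Percent of each gene list (horizontal axis) called higher, called lower or not called in the HDM response of F WT and F KO-labelled MTECs (edgeR, adjusted p under 0.05). The 10 p53 targets and the 30 other p53 targets have the largest shares called higher in F WT, 80.0% and 16 of 30 genes.

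Markers of cell types and the mitochondrial share also differed between the female libraries. In bulk RNA, fewer cells of a type and less RNA per cell cannot be told apart. The 8 club and goblet markers summed to 13400 to 17500 CPM in F WT naive and 3780 to 4680 CPM in F WT HDM libraries, and all 8 fell. The sum in F KO-labelled MTECs went from 13400 to 16100 CPM when naive to 7360 to 8140 CPM under HDM. There 5 of 8 fell. Most of these sums was Cyp2f2, at 3750 to 18900 CPM over the libraries, and no other of the 8 exceeded 693 CPM. The 8 basal markers summed to 10800 to 12200 CPM and 3900 to 6430 CPM in F WT naive and HDM libraries, with 4 lower. In F KO-labelled MTECs the basal sum was 11100 to 12800 CPM when naive and 13000 to 15500 CPM under HDM. Of 7 ciliated markers matched by symbol, 4 fell in F WT and 1 in F KO-labelled MTECs. Their sum was 111 to 141 CPM in F WT naive and 103 to 115 CPM in F WT HDM libraries, and these ranges overlapped. In F KO-labelled MTECs it was 125 to 141 CPM when naive and 69.0 to 76.1 CPM under HDM. Foxj1, at 44.8 to 97.5 CPM over the libraries, weighed most in these sums, and no other of the 7 exceeded 20.7 CPM. The median log2 fold change of the 7 was -1.54 in F WT and -1.49 in F KO-labelled MTECs. The share of counts on mitochondrial genes was 0.608% to 0.675% in F WT naive and 2.04% to 2.496% in F WT HDM libraries, 0.517% to 0.535% and 1.36% to 1.39% in the F KO-labelled ones, and 0.668% to 1.52% in males. Fibroblast markers, in cultures grown on inserts coated with matrix laid down by 3T3 fibroblasts, varied widely between replicates, from 27.4 to 547 CPM in F WT naive and from 49.4 to 598 CPM in F WT HDM libraries. Squamous markers summed to 647 to 940 CPM in F WT naive and 424 to 549 CPM in F WT HDM libraries, with 1 of 7 tested genes higher and 1 lower. In F KO-labelled MTECs their sum was 843 to 1050 CPM when naive and 1180 to 1530 CPM under HDM, with none called. Immune markers summed to 223 to 270 CPM in F WT naive and 101 to 106 CPM in F WT HDM libraries (2 of 5 tested genes lower), and endothelial markers to at most 2.29 CPM in any library. The part of these shifts in the levels of the p53 targets was not tested.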

How the data were processed

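RNA from 16 MTEC libraries, 2 for each of 8 groups of sex, LMAN1 genotype label and treatment, was analysed from a table of raw counts per Ensembl gene that the authors deposited without normalization. The submitters' processing notes name Trimmomatic version 0.36, STAR version 2.5.2b, featureCounts, Subread version 1.5.2, DESeq2 and the build GRCm38. The annotation release and strand setting are not given in the sources used here. All reads of a gene model are pooled in such counts, so transcripts of one gene cannot be separated.

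Of 49315 identifiers 49056 matched GENCODE M21, and the other 259 carried 0.0106% of counts. Genes were filtered with filterByExpr by group, scaled with TMM and fitted as 8 group means in edgeR version 4.0.16 (quasi-likelihood, two-sided) under R version 4.3.3, with Benjamini-Hochberg adjustment over 15993 genes in each of 16 comparisons. CPM uses the TMM library sizes, and correlations use log2 CPM with a pseudocount of 4. The common biological coefficient of variation was 0.142, so the spread between cultures, not depth, limits the precision. Counts of 3 or fewer were taken as the floor, for counting error only. Promoter windows came from RefSeq on GRCm38.p6. Alternatives were DESeq2 version 1.42.0, other scalings and filters, only the compared libraries, replicate blocks, a minimum absolute log2 fold change of 1 and leaving out each library. The fits were tested on simulated data. Tables and plots used Python version 3.11.15, numpy version 2.4.6, pandas version 2.3.3 and matplotlib version 3.10.9.

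The members and gene lists were chosen with earlier results of these data known. Beside the 10 members the text names Trp53, Mdm4, Trp63, Trp73 and Lman1, the genes of each list with the smallest p in the F WT (4) and F KO (2) responses, and the 3 genes most like Cdkn1a and Mdm2. Exceptions are marked.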

Additional observations from a re-analysis of the deposited data

Results flagged for a closer look

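The HDM response of 6 members differed between the sexes in WT MTECs by edgeR's test of the interaction, where 24.2% of all tested genes differed. The differences, F minus M on the log2 scale, were 2.105 for Gdf15 (adjusted p = 0.0118), 1.247 for Mdm2 (0.00125), 1.025 for Cdkn1a (0.00329), 0.963 for Ccng1 (0.00122), 0.827 for Zmat3 (0.00308) and 0.766 for Bax (0.0100). The response of 5 members differed between the genotype labels in female MTECs by the same test, where 11.2% of all tested genes differed. These 5 calls rested on single libraries, as given above. The differences, KO minus WT, were -0.982 for Bbc3 (adjusted p = 0.0236), -0.940 for Bax (0.00937), -0.849 for Mdm2 (0.0219), -0.832 for Cdkn1a (0.0217) and -0.612 for Ccng1 (0.0288). Both sets rest on the same 4 F WT libraries, and in 2 of the 4 F KO-labelled libraries, those under HDM, Lman1 stood at 66.6 and 78.1 CPM.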

How the results depend on the processing

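In F WT MTECs 8 members were called under every alternative other than a fold minimum, and leaving out a library gave 8 each time. Counts below are members called, and the cause of a change was not tested unless the alternative itself removes genes or libraries.

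With a minimum size of 1 for the log2 fold change the counts were 5 for the HDM response in F WT, 0 in F KO, 3 by sex in WT, 0 by genotype in F, 1 for KO versus WT in F HDM, 4 for F versus M in WT HDM and 1 in KO HDM. Without the filter on low counts (29397 genes) they were 6 in F KO, 1 in M WT, 3 by sex in KO, 1 by genotype in M, 2 for KO versus WT in M HDM, 1 for F versus M in WT naive and 3 in KO naive. With only the compared libraries 5 were called in F KO, and DESeq2 called 5 in F KO and 2 by sex in KO. Leaving out each library in turn gave 0 to 1 in F KO, 0 to 5 by genotype in F, 2 to 6 for KO versus WT in F HDM, 5 to 7 by sex in WT, 0 to 1 by sex in KO, 3 to 7 for F versus M in KO HDM and 8 to 9 in WT HDM. A group left with 1 library was assumed to vary like the others.

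Genes near 0 changed sign. In F KO, Ccnb2 was at -0.004 with upper-quartile scaling, -0.002 with library totals alone and -0.003 with at least 10 counts in every library (12984 genes). In F WT, Sesn2 was at -0.073 with library totals alone, which moves the median of all genes from -0.02 to -0.10, and at -0.017 without the filter. In M WT, Mdm2 was at -0.007 with library totals alone. In M KO, Mdm2 was at -0.012 without the filter, Cdkn1a at 0.030, 0.010, 0.011 and 0.006 and Sesn2 at 0.024, 0.005, 0.006 and 0.002 with library totals alone, at least 10 counts, only the compared libraries and DESeq2. Leaving out each library, signs changed within these ranges. In F WT they were -0.042 to 0.045 for Sesn2 and -0.790 to 0.250 for Mybl2. In F KO they were -0.029 to 0.262 for Bax, -0.054 to 0.338 for Bbc3, -0.125 to 0.003 for Sesn2, -0.138 to 0.151 for Ccnb2, -0.186 to 0.298 for Cdc25c and -0.096 to 0.255 for Cdkn2b. In M WT they were -0.127 to 0.114 for Ccng1, -0.213 to 0.897 for Gdf15, -0.044 to 0.079 for Mdm2, -0.014 to 0.216 for Sesn2 and -0.083 to 0.163 for Zmat3. In M KO they were -0.260 to 0.006 for Bbc3, -0.018 to 0.180 for Ccng1, -0.120 to 0.123 for Cdkn1a, -0.140 to 0.169 for Mdm2, -0.159 to 0.023 for Phlda3, -0.070 to 0.058 for Sesn2 and -0.268 to 0.031 for Zmat3. For Sesn2 they were -0.216 to 0.014 by sex in WT, -0.126 to 0.002 by genotype in F and -0.020 to 0.209 for F versus M in WT HDM.

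Replicate numbers were not taken as pairs, since the labels tie them to no shared pool or day and the deviations of same-numbered HDM and naive libraries gave a mixed picture, with correlations of 0.352, -0.249, 0.702 and 0.030 in F WT, F KO, M WT and M KO. With the replicate block the members called were 8 in F WT, 1 in F KO, 0 in M WT and M KO, 8 by sex in WT, 0 by sex in KO, 5 by genotype in F, 6 for KO versus WT in F HDM, 8 and 9 for F versus M in WT HDM and KO HDM and 0 elsewhere, and Cdkn1a in M KO was at 0.001. With crossed numbers, chosen after seeing the data, 1 member and 1500 genes were called in F KO, 6 and 4764 for KO versus WT in F HDM and 0 and 24 for F versus M in KO naive.

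Counts over all genes also moved. As each library was left out they were 373 to 907 in F KO, 2262 to 3824 by sex in WT, 52 to 1112 by sex in KO, 496 to 2383 by genotype in F, 1701 to 4568 for KO versus WT in F HDM, 4576 to 6264 in F WT, 4219 to 6122 and 1734 to 2304 for F versus M in WT and KO HDM, 5 to 12 and 7 to 16 in WT and KO naive, and 0 to 19 elsewhere. Under the other alternatives, those that moved by more than 1.5 times were these. In F KO the 1664 calls became 2717 without the filter and 2804 with only the compared libraries. By sex in KO, 569 became 1977 without the filter and 1192 with DESeq2, and by genotype in F 1798 became 3029 without the filter. The counts of 0 became 149 in M WT, 705 in M KO, 668 by genotype in M and 135, 98 and 1896 for KO versus WT in F naive, M naive and M HDM without the filter. With DESeq2 they became 2 in M WT, 1 in M KO, and 1, 1 and 538 for KO versus WT in F naive, M naive and M HDM. With only the compared libraries they became 1 in F naive and 1 in M HDM. For F versus M, 16 in WT naive became 644 without the filter, 10 with at least 10 counts, 5 with only the compared libraries and 209 with DESeq2, 30 in KO naive became 859, 9 with only the compared libraries, 12 with the block and 218 with DESeq2, and 6657 in WT HDM became 3916 with only the compared libraries. With the fold minimum, 6887 in F WT became 2693, 1664 in F KO 582, 3866 by sex in WT 1859, 569 by sex in KO 331, 1798 by genotype in F 760, 4669 for KO versus WT in F HDM 1415, and for F versus M 16, 6657, 30 and 4050 became 10, 2722, 17 and 1424.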

Other observations

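Mitotic genes differed between the sexes in HDM-treated KO-labelled MTECs. Of the 16 listed, 11 were higher in F KO HDM than in M KO HDM libraries, with a median log2 fold change of 1.19, where 25.3% of all tested genes were called and 12.4% were higher. The same list had 1 gene higher in F KO HDM than in F WT HDM libraries. Mki67, from this list, had 122 and 132 CPM in F KO HDM and 60.9 and 57.3 CPM in M KO HDM libraries. Its replicates lay further apart in other male groups, at 147 and 71.1 CPM in M WT naive and 104 and 65.6 CPM in M KO naive libraries. Calls over all genes in this comparison of the sexes also depended on single libraries, as given above. Squamous markers moved alongside, with 5 of 7 tested genes higher in F KO HDM than in M KO HDM libraries and sums of 1180 to 1530 CPM against 277 to 281 CPM. Of the 18 genes of the p53 family and its regulators, 8 were higher and 1 was lower in F KO HDM than in F WT HDM libraries, where 14.9% of all tested genes were higher and 14.3% lower.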
